A study of Drosophila melanogaster with 12 samples.

Results

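The peaks described here are the m6A peaks of adult male *Drosophila* that were assigned to exons of non-coding RNAs. They were taken by that annotation from the deposited peak list of *Mettl16* mutants, where they made up 1787 of 21991 peaks in 1313 of the annotated features. They were taken in the same way from the deposited list of peaks compared between genotypes, where they made up 130 of 3088 entries in 115 features. In all, 1321 features held such a peak in either list. MeRIP-seq, in which fragmented poly(A) RNA is pulled down with an antibody to N6-methyladenosine and sequenced beside its input, was done on whole bodies of *Mettl16* 1-9 mutants and of *w1118* controls, with 3 IP and 3 input libraries per genotype. The 1-9 allele is a small CRISPR/Cas9 deletion in exon 1 that shifts the reading frame, and each preparation pooled about 50 adult males, whose age was not given. *Mettl16* RNA itself (*CG7544*) stood at 0.971, 0.824 and 1.19 FPKM in the *w1118* inputs and at 0.430, 0.285 and 0.232 FPKM in the mutant inputs.

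m6A is laid down on messenger RNA by a complex around Mettl3, while METTL16 in mammals and its homologs in other species methylate U6 snRNA and a few further RNAs. Non-coding RNAs with poly(A) tails include long non-coding RNAs (lncRNAs), RNAs transcribed antisense to another gene, transcribed pseudogenes and the RNAs of transposons. Because transposon copies are alike in sequence and antisense RNAs lie across from other genes, a read placed on one of these RNAs may belong to another copy or, where strand is not used, to the gene on the other strand.

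lncRNAs held 880 of the 1787 mutant peaks (49.2%, 694 genes), transposon insertions 535 (29.9%, 327 insertions), antisense RNAs 286 (16.0%, 218 genes) and pseudogenes 66 (3.69%, 58 genes). The remaining 20 peaks lay in miRNA precursors such as *mir-14* and *mir-277*, snoRNAs, hairpin RNAs, a ribosomal RNA precursor and mitochondrial tRNAs. None of the non-coding exon entries in either list carried the symbol of an snRNA. Entries with other annotations were not searched for snRNAs. The paper reports m6A peaks on U6 snRNAs that were reduced in the mutants. Most features, 1020 of 1313, had a single peak, and 41 had 4 or more. The most were 11 in one transposon insertion (*FBti0059727*), 10 in *lncRNA:Hsromega* and 9 in *asRNA:CR45270*, but peaks called on overlapping isoforms are listed separately, and merging overlapping peaks on a strand left 1707 regions. The small chromosome 4 held 83 of the non-coding exon peaks (4.64%, of which 57 lay in transposon insertions) and 1.36% of all other peaks, while the X chromosome held 14.2% and 17.7%.

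Enrichment of IP over input in the mutants was higher in these peaks than in 3′ UTRs and coding exons, but it was measured on RNAs of low abundance. The median log2 enrichment was 2.74 (quartiles 2.03 and 3.32), against 2.28 in 3′ UTRs, 2.85 in 5′ UTRs, 2.96 in introns and 1.26 in coding exons. The median input level of the host RNA was 0.555 FPKM in the mutants, against 10.3 FPKM for hosts of 3′ UTR peaks, and 842 of 1756 peaks with an FPKM (47.9%) lay in features under 0.5 FPKM. A false discovery rate (FDR, from the peak caller) under 0.05 was reached by 1378 non-coding exon peaks (77.1%), compared with 94.0% of all listed peaks. Among hosts under 0.1 FPKM, the median log2 enrichment was 2.96 in non-coding exons and 3.16 in the other peaks. At 0.1 to under 0.5 FPKM it was 2.86 and 2.96, at 0.5 to under 2 FPKM 2.48 and 2.66, and at 2 to under 10 FPKM 2.48 and 2.21. Among hosts of 10 FPKM or more, it was 2.38 and 2.20.

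Many peaks carried identical values of enrichment and FDR. Of the 1787 peaks, 568 (31.8%) had a pair of enrichment and FDR that occurred at least 10 times in the whole list, compared with 5.40% of the other peaks. The commonest pair, a log2 enrichment of 2.74 with an FDR of 0.269, was listed for 98 non-coding exon peaks, followed by 2.96 with an FDR of 0.151 for 83 and 3.16 with an FDR of 0.0832 for 69. On the linear scale these enrichments were 6.68, 7.80 and 8.91. The steps between them were nearly equal, and 0.269 was the largest FDR in the list. Repeated pairs made up 51.0% of the peaks in transposon insertions, 28.2% of those in lncRNAs and 9.79% of those in antisense RNAs. In hosts under 0.5 FPKM the share was 45.7% for non-coding exons and 48.5% for the other peaks. Among the remaining non-coding exon peaks the median log2 enrichment was 2.48, and 90.3% passed an FDR of 0.05.

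**Figure D1:**
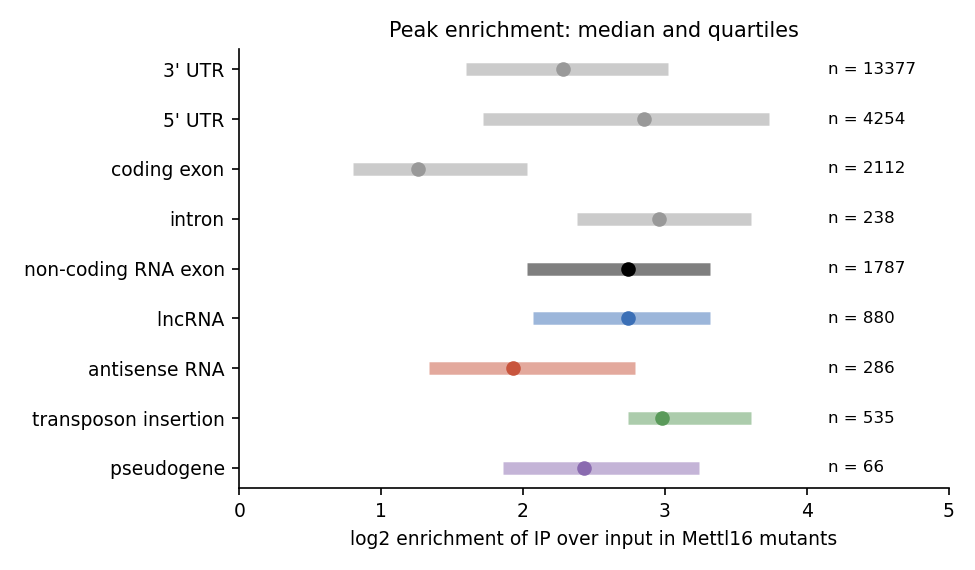
Median (point) and quartiles (bar) of the log2 enrichment of IP over input in *Mettl16* mutants, for peaks by annotation (grey and black) and for non-coding exon peaks by class (colours), with the number of peaks. Antisense RNAs had the lowest median of the 4 classes (1.93) and transposon insertions the highest (2.98).

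Of the 10 peaks of highest enrichment (1 per feature, FDR under 0.05), 9 lay in transposon insertions and 1 in a lncRNA, *lncRNA:CR43848*. The highest was in the *copia* insertion *FBti0019364* on 3R (12924095 to 12925352 in the coordinates of the files, minus strand), with a log2 enrichment of 7.77. *copia* is an LTR retrotransposon, which moves through an RNA copy. Input FPKM of this insertion was 0.689, 0.411 and 0.347 in *w1118* and 2.69, 2.04 and 3.45 in the mutants, without overlap. *lncRNA:CR43848* (3R, 13574854 to 13575479, plus strand) had a log2 enrichment of 5.71, and its level moved the other way, from 4.79, 5.38 and 4.78 FPKM in *w1118* to 1.69, 2.08 and 1.90 FPKM in the mutants. *FBti0019569*, at a log2 enrichment of 5.77, was listed at 0 FPKM in all 6 input libraries, and its peak overlapped a peak of *ctp* (*ctp* encodes a dynein light chain) on the other strand.

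Along single-exon RNAs, where a place in the transcript can be read directly, peaks lay mostly toward the 3′ end in lncRNAs. The counts are of 920 peaks that covered under 50% of a single-exon transcript. Among lncRNAs, 255 of 398 peaks (64.1%) were centred in the 3′-terminal part and 85 (21.4%) in the 5′-terminal part, when the transcript is cut into 3 equal parts. Among antisense RNAs these were 54 (44.6%) and 42 (34.7%) of 121, and among transposon insertions 175 (46.5%) and 120 (31.9%) of 376. That limit removes mainly peaks centred in the middle. Without it, the 3′, middle and 5′ parts held 55.8%, 26.1% and 18.1% of 525 lncRNA peaks, and 37.0%, 36.6% and 26.4% of 508 peaks in transposon insertions, where the 5′ part then held the fewest. Of the peaks in all lncRNAs with a position in the gene table, 425 of 877 (48.5%) reached the annotated 3′ end of the gene and 131 (14.9%) the annotated 5′ end.

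**Figure D2:**
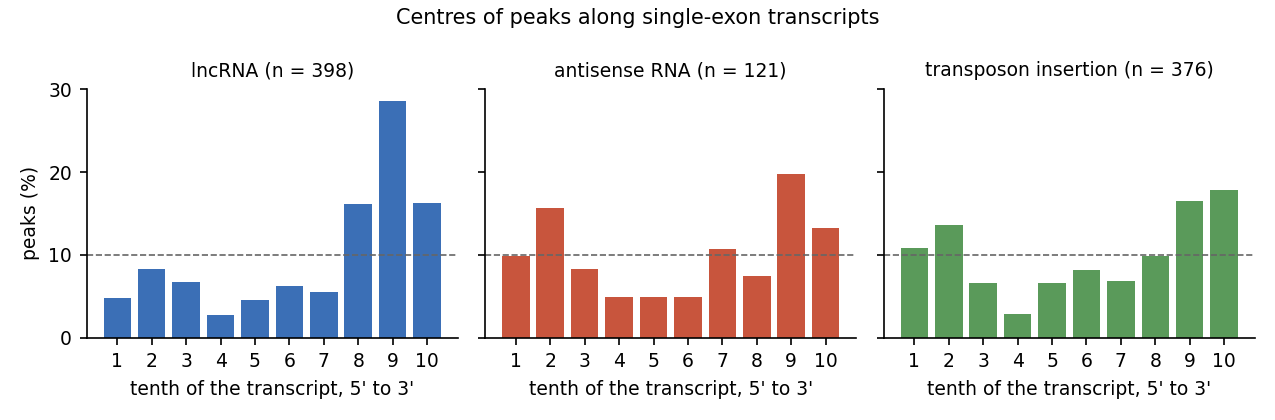
Share of peaks (%) centred in each of 10 equal parts of a single-exon transcript from 5′ to 3′, for peaks that covered under 50% of it; the dashed line marks an even spread. In lncRNAs (398 peaks) the last 3 bars stand above it, and in transposon insertions (376 peaks) the first 2 and the last 2 do.

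Several non-coding RNAs with a known role held peaks, on RNAs of very different abundance. *roX1* and *roX2*, the RNAs of the dosage compensation complex that acts on the male X, both had peaks: *lncRNA:roX1* had 7 entries with a log2 enrichment of 0.251 to 2.33, and *lncRNA:roX2* had 2, at 1.49 and 3.78. Input FPKM of *lncRNA:roX1* was 72.2, 64.7 and 64.2 in *w1118* and 65.6, 72.2 and 70.9 in the mutants, which overlapped, and that of *lncRNA:roX2* was 8.52, 7.81 and 8.03 against 8.04, 8.59 and 8.25, which overlapped too. Both are X-linked and bind the complex in males.

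*lncRNA:Hsromega*, a nuclear RNA of the heat shock response, had a strong peak pair of log2 enrichment 2.31 and 2.33, called on overlapping isoforms. Its input level was 5.18, 4.89 and 4.77 FPKM in *w1118* and 6.65, 6.03 and 6.43 FPKM in the mutants, a log2 difference of 0.31 ± 0.06 (SE, n = 3 per genotype; limma across all genes, adjusted p = 0.00518). It thus rose a little, and the 4 entries compared between genotypes had log2 changes of −0.344 to −0.244 in enrichment. The snoRNA host genes *Uhg1*, *Uhg2* and *Uhg3*, whose introns carry snoRNAs, each had 1 peak, with log2 enrichments of 2.33, 1.23 and 1.49. Of these, *Uhg1* was higher in the mutants (4.36, 4.62 and 4.02 FPKM in *w1118*; 5.73, 6.70 and 6.96 FPKM in the mutants; limma, adjusted p = 0.00220). Single peaks or pairs were also listed in *lncRNA:let7C* (3.32), the precursor of the let-7 cluster of miRNAs, in *lncRNA:iab8* (3.32 and 3.96) of the bithorax complex, and in *lncRNA:sphinx* (2.74, FDR 0.269). *lncRNA:let7C* averaged 0.271 FPKM in *w1118* and 0.328 FPKM in the mutants, and *lncRNA:sphinx* 0.111 and 0.178 FPKM, all under the floor of 0.5 FPKM.

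In the comparison of enrichment between genotypes, entries in non-coding exons passed the fold threshold more often than the list as a whole, but an FDR of 0.05 less often. These are values that the peak caller gave for the 3 replicates together, without a spread between replicates, and every entry of the list already had P under 0.05. A log2 change below −1 was listed for 29 of 130 entries (22.3%), against 6.02% of all entries, and one above 1 for 20 (15.4%), against 4.40% of all entries. With an FDR under 0.05 as well, 8 decreased (6.15%) and 11 increased (8.46%) entries were left, beside 3.21% and 2.88% of all entries. An FDR under 0.05, whatever the size of the change, was reached by 36.2% of entries in non-coding exons and by 48.6% of all entries. Intronic entries, of which there were 13, passed the fold threshold in 46.2% of cases, against 37.7% in non-coding exons. By class, transposon insertions had 11 decreased and 9 increased of 30. Antisense RNAs had 7 and 6 of 40, lncRNAs 10 and 4 of 55, and pseudogenes 1 and 1 of 5. Without transposon insertions, 18 of 100 entries were decreased and 11 increased. In hosts under 0.5 FPKM, 36.4% of entries in non-coding exons and 13.3% of other entries passed in either direction, and at 0.5 to under 2 FPKM these were 58.8% and 39.3%. At 2 to under 10 FPKM they were 29.4% and 14.5%, and at 10 FPKM or more 1 of 11 entries and 5.54%.

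**Figure D3:**
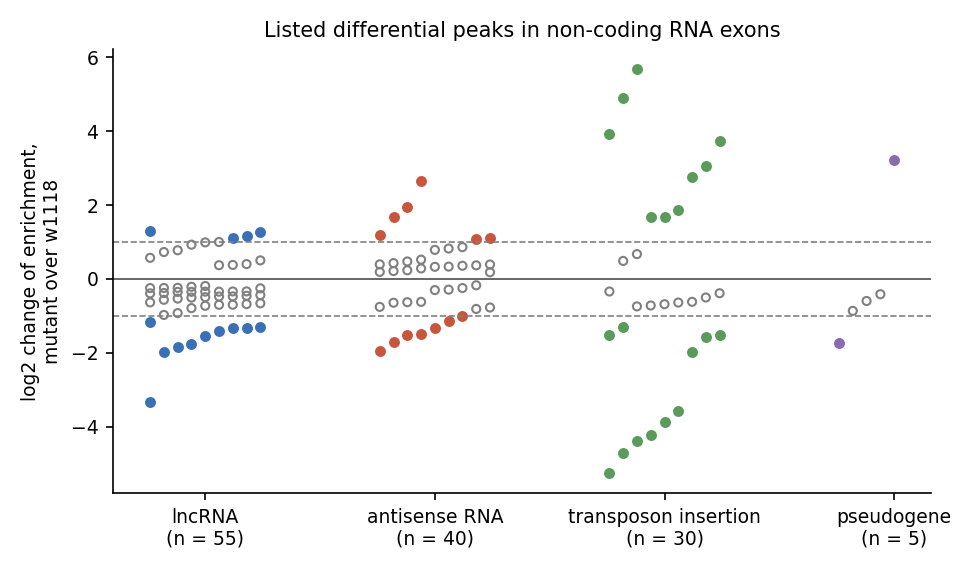
Log2 change of peak enrichment (mutant over *w1118*, values of the peak caller for the 3 replicates together) of the 130 listed entries in non-coding exons, by class; filled points are past a log2 change of 1 in size (dashed lines), open points are not. Changes ran from −5.25 to 5.67, with both extremes in transposon insertions.

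Of the 29 decreased entries, 14 overlapped no peak in the mutant list (48.3%), as did 38.2% of decreased entries of other annotations. Of the 20 increased entries, 19 overlapped a mutant peak. A decreased entry thus often lay where the mutant list had no peak.

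Among decreased entries, the smallest P belonged to *FBti0018951*, an *accord* insertion on 2R (12865971 to 12866748, plus strand), with a log2 change of −4.72 (FDR 1.58e-12). Its input level was 7.01, 5.59 and 6.05 FPKM in *w1118* and 7.12, 6.58 and 7.03 FPKM in the mutants. The groups overlapped, so the lower enrichment did not go with a lower input level. *asRNA:CR43160* on 2R (20897566 to 20897882, plus strand) had a log2 change of −1.71 (FDR 2.51e-11), behind *asRNA:CR46486*, which is described with the gene it faces. Its input was 10.9, 8.77 and 9.33 FPKM in *w1118* and 6.98, 7.97 and 8.34 FPKM in the mutants, somewhat lower and not overlapping.

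*lncRNA:CR43754* on 2L (2283704 to 2284002, minus strand) had both a decreased peak and a fall in RNA. The log2 change in enrichment was −1.53 (FDR 0.00145), no peak of this gene was in the mutant list, and its input was 7.86, 7.58 and 8.09 FPKM in *w1118* and 1.90, 1.56 and 2.02 FPKM in the mutants (log2 difference −1.65 ± 0.08, SE; limma, adjusted p = 6.46e-06). *lncRNA:CR44311* on 2L had a log2 change of −1.41 (FDR 1.10e-04), with 6.88, 5.89 and 10.4 FPKM in *w1118* and 4.37, 3.88 and 5.36 FPKM in the mutants. In *FBti0018964*, a *flea* insertion, enrichment and RNA level went opposite ways: the log2 change in enrichment was −1.56 (FDR 0.00912), and its input was 0.852, 0.581 and 0.807 FPKM in *w1118* and 3.98, 3.16 and 3.83 FPKM in the mutants (limma, adjusted p = 4.07e-05).

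Among increased entries, the smallest P belonged to the *copia* insertion *RR48347* on 3R (4105092 to 4106260, plus strand), with a log2 change of 1.86 (FDR 3.39e-09). Its input also rose, from between 0.804 and 1.14 FPKM in *w1118* to between 4.80 and 6.20 FPKM in the mutants (limma, adjusted p = 2.08e-05). *lncRNA:CR43939* on 3L (21576032 to 21576264, minus strand) had a log2 change of 1.16 (FDR 5.25e-07), while its RNA fell from 27.6, 28.3 and 25.7 FPKM to 10.1, 11.3 and 14.8 FPKM (log2 difference −1.12 ± 0.12, SE; limma, adjusted p = 2.24e-04). So an increased peak occurred both with a rise and with a fall of the host RNA.

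The pseudogene *CR43310* on 3R (gene at 25268009 to 25268464, plus strand) was listed at 0 FPKM in each *w1118* input and at 10.4, 7.86 and 11.7 FPKM in the mutants (limma, adjusted p = 2.21e-06). Its entry had a log2 change in enrichment of 3.21 (FDR 2.51e-04). It overlapped an entry of *asRNA:CR45214* on the other strand with a log2 change of 2.64 (FDR 5.37e-07), whose own input was 2.16, 2.70 and 1.87 FPKM in *w1118* and 1.17, 1.12 and 1.58 FPKM in the mutants. The 2 entries share bases, so they are not independent measurements, and the increase cannot be assigned to either RNA. Input levels of the 2 RNAs moved in opposite directions. *CR43310* passed the floor of 0.5 FPKM through the mutants only.

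A few features (3) had entries of both signs. *FBti0020321*, a *Stalker2* insertion, had one at −1.52 and one at 1.68, with 4.25, 3.02 and 3.04 FPKM in *w1118* and 2.90, 3.41 and 3.42 FPKM in the mutants. *asRNA:CR44267* had −0.811 and 0.522, and *asRNA:CR45131* −0.628 and 1.94.

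Many antisense entries could not be separated from the gene they face. Of the 286 mutant peaks in antisense RNAs, 183 (64.0%) shared at least 1 base with a peak of another annotation on the opposite strand, compared with 124 of 880 in lncRNAs (14.1%) and 71 of 535 in transposon insertions (13.3%). In 168 of those 183 (91.8%), the gene on the other strand had the higher input level, with a median of 9.44 FPKM beside 0.471 FPKM. The log2 enrichments on the 2 strands lay within 0.5 of each other in 118 of the 183 (64.5%), and in 32 of the 124 lncRNA peaks (25.8%). Of the 1787 peaks, 620 (34.7%) shared at least 1 base with the span of a protein-coding gene on the opposite strand, and 0 with one on the same strand. The peaks were chosen by annotation, which may by itself leave out same-strand overlaps. The 0 is therefore not a result about these peaks.

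The compared entries showed the same. An opposite-strand entry of another annotation overlapped 20 of the 40 entries in antisense RNAs and 3 of the 55 in lncRNAs. A further 2 pairs lay between non-coding RNAs, *asRNA:CR45214* with *CR43310* and *lncRNA:CR46488* (0.403) with *FBti0059678* (0.488). In pairs with another annotation, the log2 changes had the same sign in 23 of 23 and differed by at most 0.1 in 17. Pairs share bases, so their members are not independent measurements. Of the 6 pairs with another annotation in which the non-coding entry passed a log2 change of 1 in size, the one of smallest P was *asRNA:CR46486* on 2L (1026068 to 1026249, plus strand), at −1.49 (FDR 2.00e-12). The facing 3′ UTR entry of *CG4375* was at −1.53. *asRNA:CR46486* had at most 0.0228 FPKM in any input library, whereas *CG4375* averaged 220 FPKM in *w1118* and 73.8 FPKM in the mutants. *asRNA:CR44368* (1.68) faced the 5′ UTR of *CG18324* (1.71), and *asRNA:CR44144* (1.08) faced the 3′ UTR of *Vha100-5* (1.03), which encodes a subunit of the vacuolar proton pump. For *asRNA:CR44224* (1.18) and *Myo31DF* (0.506), a class I myosin, the values stood further apart.

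**Figure D4:**
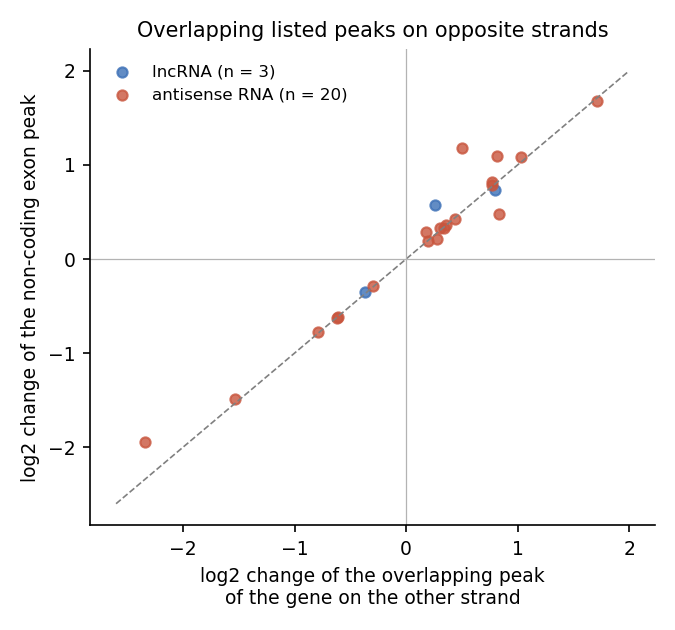
Log2 change of enrichment (mutant over *w1118*) of 23 listed entries in non-coding exons against that of the overlapping entry of another annotation on the opposite strand; the dashed line marks equal values. All 23 pairs share a sign, and 17 differ by at most 0.1.

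Input levels of the RNAs with a non-coding exon peak were lower in the mutants more often than those of all genes tested. Of 704 that averaged 0.5 FPKM or more, 280 (39.8%) were lower and 122 (17.3%) higher (limma on log2(FPKM + 1), Benjamini-Hochberg adjusted p under 0.05), while over the 13866 genes tested 26.7% were lower and 22.9% higher. The median log2 difference was −0.223, beside 0.0107 over all genes. By class, lncRNAs had 199 lower and 61 higher of 451, antisense RNAs 42 and 13 of 120, and pseudogenes 22 and 6 of 47, and transposon insertions 17 and 40 of 80. Nearly all these features were chosen by a peak called in the mutants, and 227 of the 307 insertions with an FPKM stayed below the floor of 0.5 FPKM, so the selection favours insertions that are high in mutants. Of the 80 insertions tested, 20 averaged under 0.5 FPKM in *w1118* and 3 did so in the mutants. The count for insertions is therefore only a description. Of 271 tested insertions of a named family without a peak, 37 were lower and 83 higher. Of 817 genes of these classes without a listed peak, 258 (31.6%) were lower and 157 (19.2%) higher. A share of lower RNAs above that of all genes was thus not particular to RNAs with a peak. Transposon insertions made up a larger part of these 817 than of the 704 RNAs with a peak. The 2 sets thus differ in class, and their shares do not show an effect of having a peak. At a mean of at least 2 FPKM, 165 of 295 RNAs with a peak were lower (55.9%) and 49 higher (16.6%), beside 28.6% and 24.3% of all genes tested at that level.

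Markers of male germ cells and of the accessory gland moved with this result. Of 10 markers of elongating spermatids 9 were lower, with a summed level of 1364 to 1510 FPKM in *w1118* and 852 to 987 FPKM in the mutants, and all 5 accessory gland markers were lower, at 4171 to 4584 and 2574 to 3209 FPKM. Of 5 neuronal and 5 flight muscle markers, 0 passed the test in limma, and their sums overlapped between genotypes (86.5 to 109 and 100 to 105 FPKM for neurons, 4501 to 5885 and 5502 to 6128 FPKM for flight muscle). No marker was at 0. The part of these tissues in the lower lncRNA levels was not tested, and in whole males fewer cells of a type and less RNA per cell cannot be told apart.

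The 10 most abundant RNAs with a peak were 9 lncRNAs and the hairpin RNA *hpRNA:CR18854*, a double-stranded source of small interfering RNAs. *lncRNA:CR42862* was the most abundant, at 578, 487 and 522 FPKM in *w1118* and 615, 613 and 574 FPKM in the mutants, with a peak of log2 enrichment 2.14 at its 3′ end. The other 8 lncRNAs were all lower in the mutants, by log2 differences of −0.44 to −1.48, and *hpRNA:CR18854* was higher (158, 146 and 146 FPKM; 192, 193 and 192 FPKM; limma, adjusted p = 0.00108). The largest of these differences was in *lncRNA:CR44389*, at 502, 441 and 480 FPKM in *w1118* and 151, 167 and 194 FPKM in the mutants (−1.48 ± 0.10, SE; limma, adjusted p = 2.43e-05). Its peak had a log2 enrichment of only 0.856. Stronger peaks, of log2 enrichment 4.29, 3.71 and 3.16, lay in the X-linked *lncRNA:CR32690*, *lncRNA:CR42767* and *lncRNA:CR43157*, which were lower by 0.65, 0.67 and 0.73 on the log2 scale.

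Among RNAs of at least 5 FPKM in the higher genotype, the largest falls were in lncRNAs and 1 antisense RNA. *lncRNA:CR44309* fell from 10.6, 11.0 and 11.3 FPKM to 0.812, 0.994 and 0.827 FPKM (−2.67 ± 0.07, SE; limma, adjusted p = 3.27e-07). *lncRNA:CR43239* fell from 98.2, 105 and 90.9 FPKM to 13.0, 16.7 and 18.1 FPKM (−2.56 ± 0.12, SE; limma, adjusted p = 4.68e-06). *asRNA:CR44370* fell from 77.7, 56.1 and 52.8 FPKM to 9.97, 11.0 and 12.2 FPKM (−2.37 ± 0.14, SE; limma, adjusted p = 1.62e-05), while its listed entry had a log2 change in enrichment of 0.368. *lncRNA:CR31526*, *lncRNA:CR42844* and *lncRNA:CR44219* followed, with log2 differences of −2.24, −2.10 and −2.09. This order holds for a pseudocount of 1 FPKM: with 0.1 these 3 fell by 3.01, 2.96 and 2.94 on the log2 scale, more than *lncRNA:CR43239* (−2.62) and *asRNA:CR44370* (−2.46), and *lncRNA:CR44309* stayed first (−3.51).

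The largest rises, beside *CR43310*, were in transposons and lncRNAs. *lncRNA:CR45982* rose from 0.251, 0.521 and 0.330 FPKM to 9.64, 12.1 and 13.0 FPKM (3.20 ± 0.12, SE; limma, adjusted p = 2.21e-06), with a peak of log2 enrichment 2.78. *lncRNA:CR44643* rose from 0.245, 0.179 and 0.130 FPKM to 4.77, 5.20 and 5.51 FPKM (2.38 ± 0.09, SE; limma, adjusted p = 1.99e-06). The other 3 were the insertions *RR50358*, *FBti0019898* and *FBti0019616*, with log2 differences of 3.27, 2.54 and 2.26. The only peak of *FBti0019616* had an FDR of 0.151. Of the RNAs named here, *CR43310* included, only *FBti0019898* averaged 0.5 FPKM or more in *w1118*. The others passed the floor through the mutants. All had a peak called in the mutants and were picked for not overlapping, so the p-values are only a description. Adding 1 FPKM understates rises from low levels: with a pseudocount of 0.1 the log2 differences were 4.68 for *lncRNA:CR45982*, 4.22 for *lncRNA:CR44643* and 5.01, 2.97 and 3.84 for the insertions. The mutant libraries of *RR50358* were wide apart (9.89, 22.1 and 6.54 FPKM) but above all *w1118* libraries (0.238, 0.108 and 0.527 FPKM).

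RNA levels and peak changes could be set beside each other for the compared entries. Features with a decreased entry had 6 RNAs lower and 2 higher of 18 tested, those with an increased entry 5 lower and 7 higher of 16, and those with neither 27 lower and 8 higher of 53. Over all genes 26.7% were lower and 22.9% higher, and over all RNAs with a peak 39.8% and 17.3%. The shares of lower RNAs with a decreased entry (33.3%) or an increased one (31.2%) were near that of all genes. Their shares of higher RNAs were 11.1% and 43.8%. With neither, 50.9% were lower and 15.1% higher. The groups of 18 and 16 are small, and the shares were not tested against each other.

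The families of the transposon insertions with a peak differed in the direction of their input level. A family name was available for 528 of the 535 peaks, in 89 families, and 13 families had at least 10 peaks each. The FPKM summed over all annotated insertions of a family was higher in every mutant input than in every *w1118* input for 6 of those 13, lower for 2, and overlapped for 5. Of the 6, *17.6* and *1360* were only 1.41-fold and 1.40-fold higher. The same share over all features was not worked out, so these counts are only a description. Summing was used because a read can be placed on any of several near-identical copies, so that values of single insertions are uncertain. Families and counts were looked at after the values were seen, and no test was made on the sums.

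*copia* had the most peaks, 41 in 21 insertions, with a median log2 enrichment of 3.32. Its summed level was 16.2, 12.4 and 10.8 FPKM in *w1118* and 65.7, 75.5 and 85.4 FPKM in the mutants, 5.75-fold higher. Of 38 annotated insertions, 18 passed the filter on low values and 17 of these were higher, 10 of the 18 averaging under 0.5 FPKM in *w1118*. Among the 21 insertions with a peak, which were chosen by a mutant peak, 14 were tested and all were higher. All 4 of its compared entries had a positive log2 change in enrichment, with 3 above 1 (*FBti0018967*, *RR48347* and *FBti0019183*, at 1.67, 1.86 and 3.91, the last with an FDR of 0.138). Copies can share reads, so these 4 entries are not independent measurements. *flea*, another LTR retrotransposon, had 27 peaks and a summed level of 7.94, 4.64 and 5.30 FPKM against 23.7, 22.3 and 22.8 FPKM. Its compared entries went both ways, at −1.56 and 5.67 (FDR 0.0955 for the latter).

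*HeT-A*, a non-LTR retrotransposon that maintains the telomeres of *Drosophila*, showed the reverse. It had 26 peaks in 10 insertions, with a median log2 enrichment of 2.96, and its summed level was 34.2, 30.7 and 33.4 FPKM in *w1118* and 11.0, 11.2 and 11.4 FPKM in the mutants, 2.93-fold lower. Of its insertions with a peak, 4 of 6 tested were lower and 0 higher in limma. All 9 of its compared entries had a negative log2 change in enrichment, with 4 below −1, from −5.25 (*FBti0102097*, FDR 0.216) to −1.97 (*FBti0102105*, FDR 0.0832). The other 2 lay in *FBti0062856*, which was listed at 0 FPKM in 1 *w1118* library and at 3.59 and 3.38 FPKM in the others, beside 0.718, 0.804 and 0.832 FPKM in the mutants. Their log2 changes were −4.39 (FDR 0.207) and −4.21 (FDR 0.0148), so 1 of the 4 passed an FDR of 0.05. Some of the 9 *HeT-A* entries lay in the same insertion, and copies can share reads, so they are not independent measurements. The log2 difference in RNA level of *FBti0062856* was −0.61 (limma, adjusted p = 0.368) with all libraries and −1.33, past the threshold, without *w1118* replicate 1.

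*mdg3* was lower too (21.1, 16.9 and 16.0 FPKM; 3.10, 3.21 and 2.32 FPKM) and *roo* higher (1.14, 1.07 and 0.768 FPKM; 4.21, 4.77 and 4.90 FPKM), both with no compared entry. *INE-1*, with 37 peaks, overlapped between genotypes (362, 270 and 264 FPKM; 335, 359 and 367 FPKM). Families with fewer peaks, chosen after their values were seen, reached further in both directions: *springer*, with 5 peaks, stood at 1.57, 1.67 and 1.53 FPKM in *w1118* and 30.1, 26.2 and 25.0 FPKM in the mutants, and *gypsy*, with 7, at 7.49, 7.18 and 4.04 FPKM and 54.0, 58.9 and 57.4 FPKM. Among those that were lower, *Doc2-element*, with 3 peaks, stood at 6.03, 5.02 and 5.16 FPKM in *w1118* and 0.663, 0.520 and 0.617 FPKM in the mutants, and *297*, with 5, at 5.93, 5.13 and 5.40 FPKM and 0.672, 0.893 and 1.36 FPKM. The sum of *Doc2-element* is that of its 1 annotated insertion, which had a peak. The other sums include insertions without a peak. Insertions of *roo* with a peak summed to only 0.153 to 0.161 FPKM in *w1118* and 0.246 to 0.386 FPKM in the mutants. Those of *297* overlapped, at 0 to 0.192 and 0.0137 to 0.111 FPKM. In *mdg3*, *springer* and *gypsy*, insertions with a peak moved as the family did. Stocks can carry different insertions, and genotype and stock cannot be told apart here.

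**Figure D5:**
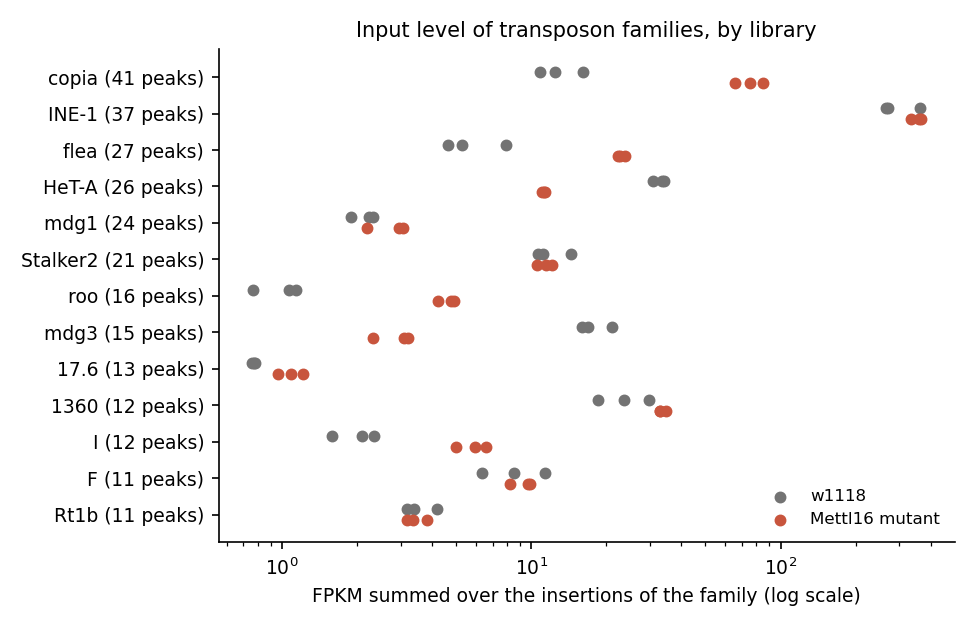
Input level of the 13 transposon families with at least 10 peaks, as FPKM summed over all insertions of the family in each of 3 *w1118* (grey) and 3 *Mettl16* mutant (red) libraries, on a log axis. *copia* and *HeT-A* are fully separated in opposite directions, and *INE-1* overlaps.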

How the data were processed

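Deposited tables were used as given. The authors cleaned reads with fastp and aligned with HISAT2, called and compared peaks with exomePeak for the 3 replicates together, and annotated them with ANNOVAR. Whether peak calling used strand is not given in the sources used here, although the libraries were stranded. Enrichments and changes are the authors' deposited log2 values, with their P-values and FDR. FPKM per gene came from the authors' StringTie run on the input libraries. The deposited read coverage per transcript gave 5.32 to 6.48 aligned gigabases per input library; depth of the IP libraries was not analysed here. Coordinates are those of the files, whose reference the authors' methods name only as v107.

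Genes that averaged 0.5 FPKM or more over the 6 inputs were tested with limma 3.58.1 (trend, log2(FPKM + 1), two-sided, Benjamini-Hochberg, threshold 0.05) in R 4.3.3. The same replicate numbers did not pair the samples, and whether replicates were separate cultures of flies is not stated beyond the label of replicate, so p-values measure the spread between these preparations. Overlap meant at least 1 shared base. Classes came from RefSeq biotypes (Release 6 plus ISO1 MT) by symbol, which matched 1244 of 1787 peaks, or from the symbol, and transposon families from a table of gene names. FPKM was not found for 27 of 1321 features. Left out were 9 further per-sample columns for genes and 18 for isoforms. The authors' deposited comparison of gene expression holds fold changes and p-values and was not used.

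Named peaks and RNAs were the 10 decreased and 10 increased entries of smallest P, the 10 highest enrichments with an FDR under 0.05 and the 10 most abundant hosts, with 1 peak per feature. To these were added the 6 largest rises and 6 largest falls among called RNAs of at least 5 FPKM without overlap, a list of known non-coding RNAs, and features with entries of both signs. Not all are described singly. The members, lists and tests were chosen with earlier results of these data known.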

Additional observations from a re-analysis of the deposited data

How the results depend on the processing

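Of RNAs with a non-coding exon peak, 122 were higher and 280 lower. Without a filter on low values 200 were higher, and with a mean of at least 2 FPKM 49 were higher and 165 lower, of 1274 and 295 tested. Leaving out 1 library gave 100 to 132 higher and 239 to 281 lower, and the replicate block gave 117 and 272, with correlations of same-numbered samples between −0.0608 and −0.0274, so the numbers gave no sign of pairing. Decreased entries numbered 8 with an FDR under 0.05, 7 with a log2 change over 2 in size and, in alternatives chosen after seeing the data, 18 without transposon insertions. Increased entries numbered 11, 8 and 11 under the same settings, and 13 when entries overlapping a listed peak of another gene were left out, also chosen after seeing the data. The cause was not tested where the setting itself does not remove entries. Of 51 named RNAs tested, 39 were called. Calls of *asRNA:CR43160*, *lncRNA:CR44311* and *asRNA:CR44368* were lost without at least 1 library, those of *asRNA:CR43160* and *asRNA:CR44368* also with the replicate block, and those of *asRNA:CR43160* and *lncRNA:CR44311* without a filter on low values, and *Uhg3* (0.53 without mutant replicate 3, 0.34 with the replicate block), *lncRNA:CR42862* (0.25 without *w1118* replicate 1) and *FBti0018951* (0.21 without *w1118* replicate 1) gained one. The motif search was not run, since it needs a genome. A pseudocount of 0.1 kept all 51 calls as they were and widened the differences of low RNAs. Entries were few at 10 FPKM or more, and levels under 0.5 FPKM rest on few reads.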
